A study of Mus musculus with 2 samples.

Results

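Cells of the lung that carried transcripts of regulatory T cells or group 2 innate lymphoid cells were examined in 2 single-cell libraries of mouse lung, labelled control and fibrosis. A cell was taken when at least 2 of 6 genes, Gata3, Il1rl1, Icos, Ikzf2, Klrg1 and Cxcr6, had at least 1 unique molecular identifier (UMI, 1 counted transcript). Cells with any UMI of 7 genes of other lineages (Ncr1, Klra8, Cd79a, Lamp3, Cd209a, C1qa and Pecam1) or with over 10% mitochondrial UMIs were left out. The rule found 247 of 14971 cells, 78 of 8026 in the control library and 169 of 6945 in the fibrosis library. Cells with a UMI of the CD3 genes Cd3d, Cd3e or Cd3g (CD3-detected members, 61 control and 130 fibrosis) are described apart from cells without one (CD3-undetected members, 17 and 39). The members were chosen by the measured UMIs of these genes, so the levels of the 6 genes inside them are a description only.

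Both libraries came from the whole lung of a male C57Bl/6J mouse aged 3 months, 1 mouse per library, with the lungs taken 14 days after 100 µg of particles were instilled into the trachea. The protocol of either sample names both titanium dioxide (TiO2) and crocidolite asbestos, and does not assign them, so the libraries keep their labels, control and fibrosis. Each group is a single mouse, so differences between libraries have no replicates behind them and were not tested. Every 95% interval below covers counting error only.

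Regulatory T cells are CD4 T cells that restrain other lymphocytes under the transcription factor Foxp3. Those of tissues such as the lung often also carry Gata3, the interleukin-33 receptor ST2 (gene Il1rl1), Klrg1 and the growth factor amphiregulin (Areg). Group 2 innate lymphoid cells lack a T cell receptor and share Gata3 and ST2. They answer epithelial alarmins such as interleukin-33 with interleukin-5, interleukin-13 and amphiregulin.

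The sequences just upstream of 3 genes are shown because Gata3, a gene of the rule, encodes a factor that binds GATA motifs, and because Il1rl1, Il13 and Il5 carry the type 2 part of the results. RefSeq's promoter table (build GRCm38.p6) held 10 of the 13 genes looked up; Klrg1, Icos and Ikzf2 had no entry. Capitals mark the run AGATAA, the run AGATAG, the run TGATAA or the run TGATAG on either strand within the 250 bases before the start. The first listed start of Il1rl1 (chr1:40429320-40429569, plus strand) held 5 matches, which do not overlap, at 217, 141, 110, 80 and 54 bases before it. Its other start held 1. Il13 (chr11:53634703-53634952, minus strand) and Il5 (chr11:53720544-53720793, plus strand) held 1 each. At least 1 match was present in 26.5% of all 32851 promoters of this length. Foxp3 held 2 and 1 at its listed starts and Calca 1, and Areg, Tnfrsf4, Ctla4, Cxcr6 and Gata3 held none. A match is a run of letters and not a measured site.
Il1rl1: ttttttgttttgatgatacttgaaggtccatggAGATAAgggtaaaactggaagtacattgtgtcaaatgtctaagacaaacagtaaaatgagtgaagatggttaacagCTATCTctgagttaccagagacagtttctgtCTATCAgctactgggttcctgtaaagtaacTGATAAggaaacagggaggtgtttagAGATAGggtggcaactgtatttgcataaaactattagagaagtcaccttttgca
Il13: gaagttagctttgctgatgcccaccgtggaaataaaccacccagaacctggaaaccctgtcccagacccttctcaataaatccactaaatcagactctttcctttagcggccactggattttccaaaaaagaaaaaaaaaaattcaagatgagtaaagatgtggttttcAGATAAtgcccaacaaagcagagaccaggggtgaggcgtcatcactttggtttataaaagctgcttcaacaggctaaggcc
Il5: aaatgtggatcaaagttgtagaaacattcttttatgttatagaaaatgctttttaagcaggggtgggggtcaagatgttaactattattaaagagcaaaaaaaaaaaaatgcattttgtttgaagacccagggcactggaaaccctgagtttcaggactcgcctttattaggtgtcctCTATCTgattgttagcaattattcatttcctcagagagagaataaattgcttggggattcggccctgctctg

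The libraries held 36632591 (control) and 38090308 UMIs (fibrosis) in 8280 and 7173 cells. The lowest cell totals were 1460 and 1915 UMIs, and 89 barcodes occurred in both libraries. None of the control members and 3 fibrosis members carried such a barcode. The CD3-detected members had median totals of 2683 and 2698.5 UMIs per cell and the CD3-undetected members 2339 and 2586. Other T cells, with a CD3 UMI and fewer than 2 of the 6 genes, numbered 588 and 457, with medians of 2798 and 2772 UMIs. Cells with Cd79a and none of the other excluded genes or CD3 genes (B-gated cells, 874 and 412) served as background for RNA from lysed cells, with medians of 2010 and 2714.5 UMIs.

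The members made up 0.972% of control cells (95% interval 0.769 to 1.21) and 2.43% of fibrosis cells (2.08 to 2.82), a fold of 2.50 (1.90 to 3.32). CD3-detected members were 0.760% and 1.87%, a fold of 2.46 (1.80 to 3.40), and CD3-undetected members 0.212% and 0.562%, a fold of 2.65 (1.47 to 5.00). Of all CD3-detected cells that passed the exclusions, members were 61 of 649 in the control library (9.40%, 7.27 to 11.9) and 130 of 587 in the fibrosis library (22.1%, 18.8 to 25.7). The share was thus higher in the fibrosis library in both kinds of member and also among T cells alone. When every cell was thinned to 1000 UMIs before the rule was applied, 20 control and 70 fibrosis CD3-detected members were left and the fold of their share was 4.04. With at least 3 of the 6 genes required, 22 and 82 were left and the fold was 4.31.

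Over all CD3-detected cells, a set the 6 genes did not choose, Il1rl1 and Klrg1 differed most among the 6. Il1rl1, the ST2 receptor, was detected in 8 of 649 control cells and 47 of 587 fibrosis cells, a fold of the share of 6.50 (3.04 to 15.9). Klrg1, an inhibitory lectin receptor of differentiated lymphocytes, was detected in 11 and 67 cells, a fold of 6.73 (3.53 to 14.1). Ikzf2 (Helios, a factor of regulatory T cells) was detected in 68 and 125 cells, and Icos, a co-stimulatory receptor, in 60 and 109. Cxcr6, a chemokine receptor of tissue-resident lymphocytes, was detected in 67 and 114. Their folds were 2.03, 2.01 and 1.88. Gata3 stood apart, with 97 and 102 cells and a fold of 1.16 (0.872 to 1.55), so its detection differed by less than counting error. Foxp3, which the rule did not use, was detected in 14 and 35 cells, a fold of 2.76 (1.45 to 5.56). In B-gated cells Il1rl1 was detected in 3 of 874 and 5 of 412 cells, Klrg1 in 4 and 3, Ikzf2 in 11 and 5, and Foxp3 in none.

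**Figure D1:**
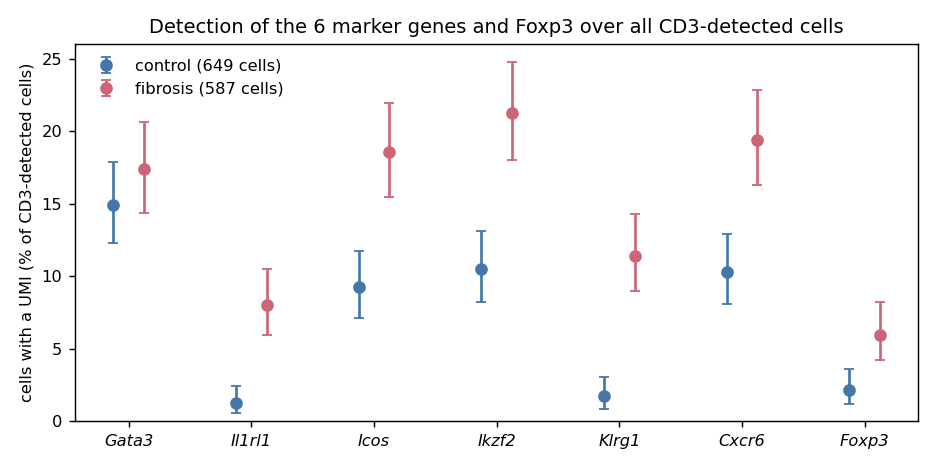
Share of all CD3-detected cells (percent, 649 control and 587 fibrosis cells) with at least 1 UMI of each rule gene and of Foxp3, with exact 95% binomial intervals. Intervals of the libraries lie apart for Il1rl1, Klrg1, Icos, Ikzf2, Cxcr6 and Foxp3 and overlap for Gata3.

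Among the CD3-detected members, the 6 genes occurred in larger combinations in the fibrosis library. Of 61 control members 39 carried exactly 2 of the genes, 15 carried 3, 6 carried 4 and 1 carried all 6. Of 130 fibrosis members 48 carried 2, 34 carried 3, 21 carried 4, 19 carried 5 and 8 carried all 6. The commonest control pair was Gata3 with Cxcr6, in 19 members, and 8 members had that pair alone. In the fibrosis library Gata3 with Ikzf2 occurred in 54 members (13 in the control library) and Ikzf2 with Klrg1 in 53 (6 in the control library). Il1rl1 with Klrg1 occurred in 5 control and 36 fibrosis members.

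The label of regulatory-type T cells held for some of the CD3-detected members only. Foxp3 was detected in 10 of 61 control members (16.4%, 8.15 to 28.1) and 30 of 130 fibrosis members (23.1%, 16.1 to 31.3), and in 4 of 588 and 5 of 457 other T cells. The share of members with Foxp3 in each library lay inside the interval of the other, so it did not differ beyond counting error. The CD8 genes Cd8a or Cd8b1 were detected in 17 control members (27.9%, 17.1 to 40.8) and 14 fibrosis members (10.8%, 6.01 to 17.4). None of Foxp3, Cd8a, Cd8b1 and Cd4 was detected in 31 and 74 members, which at these depths does not show that they lack them. Thinned to 1000 UMIs, the same cells held Foxp3 in 6 and 13 and the CD8 genes in 12 and 8. When cells were thinned before the rule was applied, the order of the CD8 shares turned, with CD8 genes in 0 of 20 control and 2 of 70 fibrosis members. The set is therefore called CD3-detected members throughout.

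Foxp3 and Il1rl1 occurred together in 1 of 61 control members (1.64%, 0.0415 to 8.80) and in 18 of 130 fibrosis members (13.8%, 8.42 to 21.0). Foxp3 and Klrg1 occurred together in 3 and 22 members, and Foxp3 and Ikzf2 in 9 and 29. Il1rl1 without Foxp3 was found in 6 and 27 members. Areg occurred with Foxp3 in none of the control members, which allows up to 4.92% with 3 cells as the limit of a count of 0, and in 4 fibrosis members. Thinned to 1000 UMIs, Foxp3 with Il1rl1 was found in 1 and 4 members. Il1rl1, Klrg1 and Ikzf2 are genes of the rule, and these counts are a description. The intervals of Foxp3 with Il1rl1 overlap from 8.42% to 8.80%, which does not decide whether the shares differ beyond counting error.

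Detection of genes outside the rule differed with the number of rule genes in a T cell, and is given here without a test. Among control T cells Foxp3 was found in 0.233%, 1.90%, 17.9% and 13.6% of cells with 0, 1, 2 and at least 3 of the 6 genes. In the fibrosis library the shares were 0.629%, 2.16%, 8.33% and 31.7%. For Foxp3, cells just outside the rule, with 1 gene, were thus nearer to cells with none than to cells with 2 in both libraries. Ctla4, an inhibitory receptor, was found in 3.16% of control cells with 1 gene and 12.8% with 2, and in 2.88% and 8.33% of fibrosis cells. With at least 3 genes it was found in 22.7% and 46.3%. S100a4, a gene of activated and memory T cells, was found in 22.2% and 79.5% of control cells with 1 and 2 genes and in 23.0% and 64.6% of fibrosis cells. The homing receptor of lymph nodes, Ccr7, went the other way, from 43.7% to 23.1% of control cells and from 33.8% to 25% of fibrosis cells. Free RNA and depth bear on single-UMI detection, and their part in these shares was not tested.

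**Figure D2:**
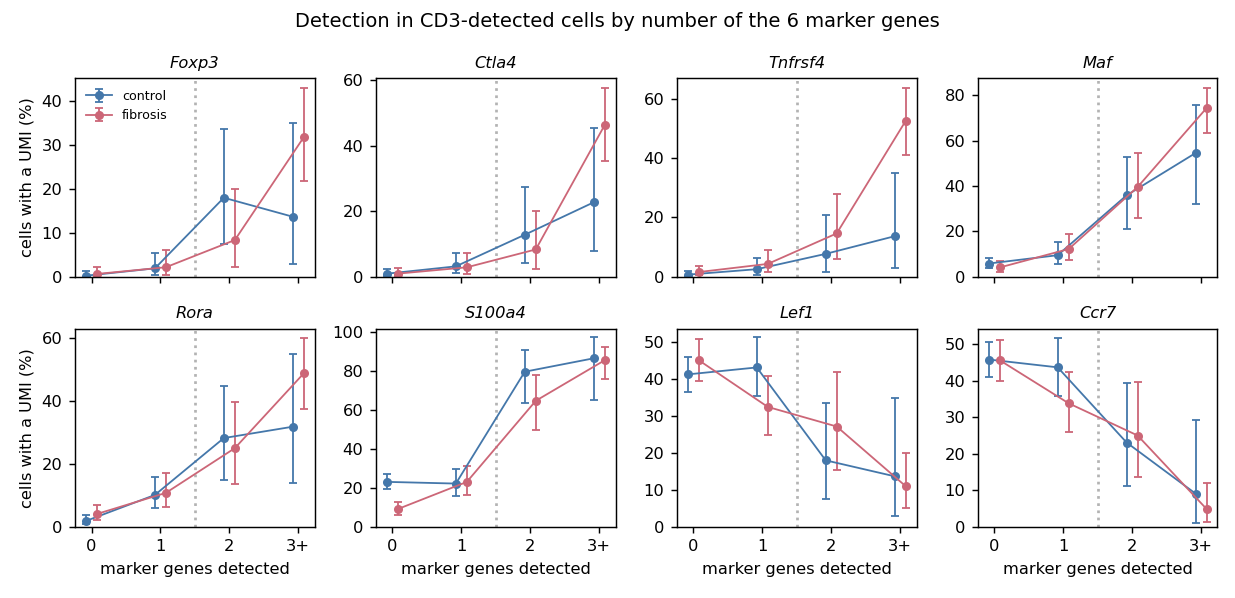
Percent of CD3-detected cells with a UMI of 8 genes outside the rule (vertical axes) by the number of the 6 rule genes detected (horizontal axes), with exact 95% intervals; the dotted line is the threshold of the rule. Foxp3 in the fibrosis library lies at 2.16% with 1 gene, 8.33% with 2 and 31.7% with 3 or more.

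Regulatory T cell genes were higher in the fibrosis library than in the control library within CD3-detected members. Foxp3 itself differed by less than counting error. Levels here are UMIs of a gene scaled to a total of 1000000 over the population (CPM), and log2 ratios are fibrosis over control with 0.5 UMI added to each sum. Of 3972 genes with at least 20 UMIs, 8.48% were at least 2-fold higher and 4.76% at least 2-fold lower in the fibrosis library. Of the 22 listed regulatory T cell genes 13 reached 20 UMIs, and 8 of these were at least 2-fold higher and none lower. Their median log2 ratio was 1.04, beside 0.00264 over all genes, and was the same with genes at 0 set to their bound. The list holds Ikzf2, a gene of the rule that was not among the 8, and was written with earlier results of these data known. Of the 8, only Tnfrsf18 reached 20 UMIs in control members alone. The others reached 20 only with the fibrosis UMIs added, so the count is a description. Of the same list in other T cells, 10 genes reached 20 UMIs and none was at least 2-fold higher, beside 6.92% of 9047 genes there. The rule takes most T cells with Foxp3 out of that population, so its count cannot show whether the difference is particular to members.

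Foxp3 stood at 66.1 CPM (14 UMIs, 36.1 to 111) in control members and 78.6 (37 UMIs, 55.4 to 108) in fibrosis members. The log2 ratio was 0.22 (-0.67 to 1.25), an interval that includes the ratios of Ctla4 and Nrp1 given below. Tnfrsf4 (OX40, a co-stimulatory receptor) stood at 37.8 CPM in control members (8 UMIs in 6 cells, 16.3 to 74.4) and 223 in fibrosis members (105 UMIs in 50 cells, 182 to 270). Its log2 ratio was 2.48 (1.53 to 3.81). Tnfrsf9 (4-1BB, induced on activated regulatory T cells) was found as 1 UMI in control members, at 4.72 CPM, and as 56 UMIs in 25 fibrosis members, at 119 CPM. The log2 ratio was 4.08 (2.12 to 9.98). Both receptors were low in control members, and their intervals lie apart between the libraries.

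Tnfrsf18 (GITR) stood at 123 CPM (26 UMIs) and 306 (144 UMIs), a log2 ratio of 1.3 (0.71 to 1.98). The interleukin-2 receptor α chain, Il2ra, stood at 56.7 (12 UMIs) and 140 (66 UMIs), a log2 ratio of 1.26 (0.41 to 2.33). Ctla4 stood at 70.8 (15 UMIs) and 149 (70 UMIs), a log2 ratio of 1.03 (0.25 to 1.98). These receptors were thus moderately higher over all CD3-detected members. With exactly 2 rule genes (39 control and 48 fibrosis members), Ctla4 was detected in 12.8% and 8.33% and Il2ra in 15.4% and 10.4%. Tnfrsf18 was then detected in 20.5% and 14.6%, and Tnfrsf4, in the other direction, in 7.69% and 14.6%. With at least 3 (22 and 82 members), the shares were 22.7% and 46.3% for Ctla4 and 18.2% and 41.5% for Il2ra. They were 36.4% and 62.2% for Tnfrsf18 and 13.6% and 52.4% for Tnfrsf4. Nt5e (CD73, which makes adenosine) had 2 and 33 UMIs, a log2 ratio of 2.59, and Nrp1 had 13 and 61, a log2 ratio of 1.04. Ikzf4 (Eos, a partner of Foxp3) had no UMI in control members and 25 UMIs in 20 fibrosis members, at least 3.75-fold higher with 3 UMIs as the limit of a count of 0. Capg, a tissue regulatory T cell gene, differed by less than counting error, at 510 and 480 CPM.

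**Figure D3:**
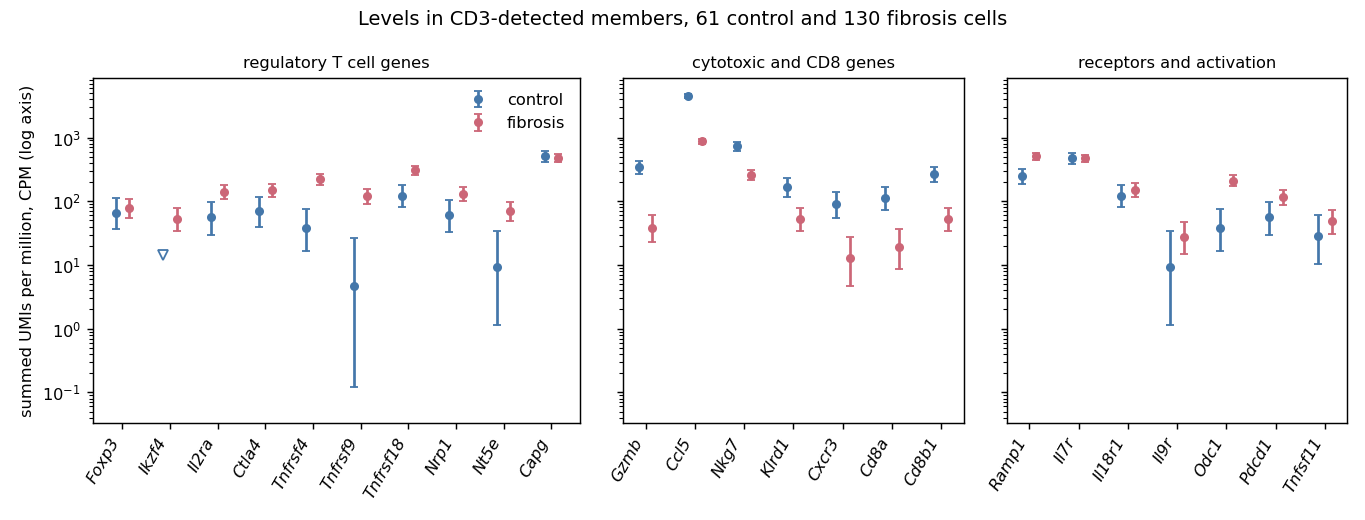
Summed UMIs scaled to 1000000 (CPM, log axis) of listed genes in 61 control and 130 fibrosis CD3-detected members, with exact 95% Poisson intervals; the open triangle marks a gene with no UMI, drawn at the limit of 3 UMIs. Tnfrsf4 lies at 37.8 and 223 CPM and Gzmb at 345 and 38.3 CPM in the control and fibrosis libraries.

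The regulatory T cell genes were also higher over all CD3-detected cells, where the 6 genes chose nothing. There 9 of 17 tested genes of the list were at least 2-fold higher and none lower, beside 7.17% of all genes higher and 2.08% lower. Markers of other cells also differed there: 6 of 8 epithelial and 3 of 5 dendritic cell markers were higher and all 5 neutrophil markers lower. Without marked cells 4.85% of all genes were higher and 1.95% lower. There 10 of 14 regulatory T cell genes were higher, and none of 6 epithelial and none of 3 dendritic cell markers. With marked cells kept, Tnfrsf4 had 8 UMIs in control members and 8 in other control T cells, and Il2ra 12 and 6. Both genes reached the UMI minimum only with the fibrosis UMIs added. Ctla4 (15 and 10) and Foxp3 (14 and 6) reached it in control cells alone. This was not examined for the other genes of the list. The list also holds Ikzf2, a gene of the rule, so both counts of the list are a description. Tnfrsf4 was detected in 13 of 649 and 61 of 587 cells, a fold of 5.19 (2.82 to 10.3), and Tnfrsf9 in 4 and 31, a fold of 8.57 (3.03 to 33.4). Il2ra was detected in 15 and 43 cells, a fold of 3.17 (1.73 to 6.14), and Ctla4 in 19 and 49, a fold of 2.85 (1.65 to 5.13). Pdcd1 (PD-1, an inhibitory receptor) was detected in 10 and 37, a fold of 4.09 (1.99 to 9.22). Of the fibrosis cells with Tnfrsf4, 50 were members and 11 were other T cells. In B-gated cells Tnfrsf4 was found in 3 and 2 cells, Tnfrsf9 in 2 and 1, Il2ra in 4 and 2 and Ctla4 in 2 and 4.

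Cytotoxic and CD8 genes were lower in fibrosis members. Of the 16 genes of the type 1 and cytotoxic list 6 reached 20 UMIs, and 5 were at least 2-fold lower, beside 4.76% of all genes. The median log2 ratio of the 6 was -1.56, and 408 of the list's 1375 control UMIs lay in 1 cell. Over all CD3-detected cells 2 of 14 genes of this list were lower (median -0.50), or 1 of 13 without marked cells. Of all genes 2.08% and 1.95% were lower there. Gzmb (granzyme B) stood at 345 CPM in control members (73 UMIs in 18 cells, 270 to 433) and 38.3 in fibrosis members (18 UMIs in 6 cells, 22.7 to 60.5), a log2 ratio of -3.14 (-4.00 to -2.41). The chemokine Ccl5 stood at 4509 and 873 CPM, a log2 ratio of -2.37 (-2.54 to -2.20), and 297 of its 955 control UMIs lay in 1 cell. Nkg7, a gene of cytotoxic granules, stood at 727 and 259 CPM, Klrd1 at 165 and 53.1 and Klrk1 had a log2 ratio of -1.09. Gzma, the sixth gene, had a log2 ratio of -0.77, and in each library 1 cell held most of it, 80 of 95 UMIs in the control and 77 of 124 in the other.

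The CD8 genes Cd8a (24 and 9 UMIs, log2 ratio -2.52) and Cd8b1 (57 and 25 UMIs, -2.32) were lower too, which accompanies the smaller share of CD8-detected members above. They and Lat were the only 3 of 12 T cell receptor genes at least 2-fold lower, beside 4.76% of all genes. Over all CD3-detected cells none of the 12 was. With exactly 2 rule genes, Cd8b1 was detected in 33.3% of control and 16.7% of fibrosis members. With at least 3 it was detected in 9.09% and 7.32%, so its difference lay mostly in members with 2. The cytotoxic genes were not split in this way. In other T cells Gzmb had a log2 ratio of -1.39 (-2.09 to -0.76), Cd8a of -0.62 and Ccl5 of -0.13. In members 3 of 10 genes of the naive T cell list were at least 2-fold lower, beside 4.76% of all genes. They were Tcf7 (-1.33), Klf2 (-1.07) and Actn1 (-2.19), and none was lower over all CD3-detected cells. Of the cell cycle list 5 of 9 were lower in members, beside the same 4.76%. Among them were Cdk1 (14 and 9 UMIs, -1.76) and Rrm2 (26 and 17 UMIs, -1.75). Of the list's 531 control UMIs 142 lay in 1 cell. The cell cycle list ran the other way in other T cells, with 4 of 10 genes higher, beside 6.92% of all genes, and none lower. It did so over all CD3-detected cells too, with 2 higher, beside 7.17% of all genes, and none lower. Without marked cells this was nearly gone, with 1 of 8 genes higher in other T cells (median log2 ratio 0.04). Over all CD3-detected cells 1 of 10 was then higher (median 0.09), and in members 4 of 9 were lower.

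Among genes of receptors and tissue residence, Ramp1, a part of the receptor for the neuropeptide CGRP, stood at 246 CPM in control and 510 in fibrosis members. The log2 ratio was 1.04 (0.62 to 1.52), beside -0.13 (-0.42 to 0.17) in other T cells. Odc1, which makes polyamines, had 8 UMIs in 8 control cells and 99 in 46 fibrosis cells, a log2 ratio of 2.40 (1.44 to 3.73). The residence integrin Itgae (CD103) had 4 and 31 UMIs, a log2 ratio of 1.66 (0.30 to 3.77), and Cd44 a log2 ratio of 1.02 (0.48 to 1.62). Against these, Cxcr3, a chemokine receptor of type 1 T cells, was lower (19 and 6 UMIs, -2.74), as was Itgb1 (63 and 40 UMIs, -1.80). The trafficking list held 2 higher and 5 lower genes of 19 tested, beside 8.48% of all genes higher and 4.76% lower. Of its 2 higher genes, Itgae reached 20 UMIs only with the fibrosis UMIs added. The checkpoint list held 4 higher genes of 11, and all 4 are also in the regulatory T cell list. The alarmin receptor list held 3 higher of 12. The transcription factors held 1 higher (Tox) and 1 lower (Tcf7) of 14, near the shares of all genes. All of these lists hold genes of the rule, so their counts are a description. Of 12 immediate-early and heat shock genes Egr1 and Nr4a1 were higher. Egr1 had 3 and 20 UMIs, and its interval includes no difference (-0.17 to 3.98).

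Type 2 effector transcripts were seen in few CD3-detected members. Il13 had no UMI in control members and 34 UMIs in 6 fibrosis members, 28 of them in 1 cell, at least 5.10-fold higher. Areg had no UMI in the control and 6 in 6 fibrosis members, Calca 15 in 2 members and Penk 16 in 5. Il5 had none in either library. Of the 14 listed type 2 effectors 3 reached 20 UMIs, among them Il13 and Odc1, both of which passed only through the fibrosis library. In B-gated cells Il13 and Calca had no UMI, while Areg was found in 5 control and 5 fibrosis cells.

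RNA of other cell types was present in the CD3-detected members of both libraries. At least 3 UMIs of the defining markers of another type were found in 1 of 61 control and 10 of 130 fibrosis members. Of 9 epithelial markers 7 and 8 were detected, with 10 to 51 UMIs per control cell and 3 to 2526 per fibrosis cell, while Lamp3 was at 0 by the rule. Of 10 macrophage and monocyte markers 7 and 9 were detected, with 0 to 235 and 0 to 144 UMIs per cell, and all 5 neutrophil markers with 0 to 272 and 0 to 1072. By the rule for named genes, the gene most above its ratio in other T cells was Scgb3a1, with 410 of 420 UMIs in 1 fibrosis cell. Retnlg, Cldn5, Lcn2 and Lpl also stood there, and in the other direction Ager, Aqp5, Clca1 and Retnla. Most of these are genes of epithelium, endothelium, neutrophils or macrophages. Without the marked cells 7.43% of 3645 genes were higher and 4.91% lower, and the regulatory T cell list had 8 of 13 genes higher and the cytotoxic list 5 of 6 lower. The part of such RNA in single genes was not tested.

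Against other T cells of the same library, CD3-detected members had higher regulatory T cell and checkpoint genes and lower naive T cell genes. This follows in part from the choice of cells and is given as a description. Of 9502 genes 4.67% were at least 2-fold higher and 3.69% lower in both libraries, with the 6 genes left out. With genes at 0 set to their bound, 127 in place of 351 genes were lower. The median log2 ratio of all genes was 0.271 for control and 0.286 for fibrosis cells. The split of 444 higher and 351 lower genes became 229 and 529 when each comparison was scaled by its median ratio. Of 15 tested regulatory T cell genes 8 were higher (7 when scaled), of 13 checkpoint genes 6 (5), of 22 transcription factors 9 (8) and of 16 alarmin and cue receptors 9 (4). Cell cycle genes (3 of 10) and cytotoxic genes (3 of 14) were also higher. Of 10 naive T cell genes 5 were lower under both scalings.

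The highest genes in both libraries included Ccr4, a chemokine receptor of regulatory and type 2 T cells (33.0 CPM in members against 0.514 in other control T cells, 40.4 against 1.16 in fibrosis). Pdcd1 stood at 56.7 against 2.06 and 115 against 2.90 CPM. Foxp3 had log2 ratios of 4.36 and 4.40, Il2ra of 4.14 and 5.76 and Ctla4 of 3.76 and 5.10, control before fibrosis. The factors Maf (2.74 and 3.65) and Rora (3.20 and 3.22) were higher, as were S100a4 (2.05 and 3.32) and Lgals1 (2.44 and 1.95). Il17rb, the receptor for the alarmin interleukin-25, had 4 and 12 UMIs in members and 0 and 4 in other T cells. The naive genes Dapl1 (-2.51 and -2.79), Igfbp4 (-3.43 and -2.74), Lef1 (-1.76 and -1.39), Ccr7 (-1.51 and -1.75) and Satb1 (-1.03 and -1.38) were lower.

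Foxp3-detected members were then compared with the other CD3-detected members of the same library, 10 against 51 control cells and 30 against 100 fibrosis cells. Of 3736 genes 2.44% were at least 2-fold higher and 2.65% lower in both libraries, and the medians of all genes lay at 0.12 and 0.16. With genes at 0 set to their bound, 16 in place of 99 genes were lower. Of 9 tested regulatory T cell genes 6 were higher (3 when scaled by the median ratio). Ctla4 stood at 310 against 22.7 CPM in control cells and 239 against 120 in fibrosis cells. Tnfrsf18 stood at 310 against 85.1 and 558 against 226. Ikzf2 (1.75 and 1.08) and Izumo1r (2.49 and 1.22) were higher too, and so was Klrg1, at 281 against 73.7 and 594 against 201 CPM. Gzmb was among the highest, with 33 of 73 control UMIs and 10 of 18 fibrosis UMIs in Foxp3-detected cells. Of the naive T cell list 5 of 10 genes were lower, but only 1 with genes at 0 set to their bound. Among the lowest was Tmem176b, with 1 against 56 and 3 against 97 UMIs. Foxp3-undetected members still held 206 Ikzf2, 55 Tnfrsf4 and 43 Ctla4 UMIs in the fibrosis library, so these transcripts were not restricted to cells with a Foxp3 UMI.

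The CD3-undetected members were a mixture. At least 3 UMIs of the defining markers of another cell type were found in 4 of 17 control and 9 of 39 fibrosis members. Of the rest, 1 and 6 carried a UMI of another T cell gene (Cd4, Cd5, Cd6, Cd8a, Cd8b1, Cd28 or Cd247). Another 12 and 21 had no such UMI and carried Il7r or Thy1, surface genes of innate lymphoid cells that T cells share, and 0 and 3 carried none of these. A cell without a CD3 UMI may still hold CD3 transcripts, so the absence of a T cell receptor is not shown at this depth. The basophil genes Mcpt8, Cpa3, Ms4a2 or Cd200r3 were found in 3 control members and no fibrosis member, and the epithelial genes Epcam, Foxj1 or Cdh1 in 1 and 8.

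Compared with CD3-detected members of the same library, the CD3-undetected members had less of other T cell genes. Of 4727 genes 3.51% were at least 2-fold higher and 3.49% lower in both libraries, with the CD3 genes left out. With genes at 0 set to their bound, 83 in place of 165 genes were lower. Of 9 tested T cell receptor genes 8 were lower, or 5 with genes at 0 set to their bound. Cd247, the receptor's ζ chain, stood at 15.7 against 194 CPM in control cells and 11.7 against 99.9 in fibrosis cells, and the kinase Lck at 62.9 against 463 and 52.5 against 276. Of 11 tested checkpoint genes 7 were lower, or 4 with genes at their bound. Cd28 had 1 against 38 UMIs in control and 0 against 75 in fibrosis members. Thy1 (-1.88 and -2.06) and Bcl11b (-2.05 and -1.10) were lower. Il7r (-0.42 and -0.49) and Rora (0.26 and 0.02) stayed within 2-fold. The highest genes were led by Plet1, Nrgn, Cd24a, Rnf128 and Hdc, and Cd24a, with 10 against 1 and 147 against 15 UMIs, is also a gene of epithelium.

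**Figure D4:**
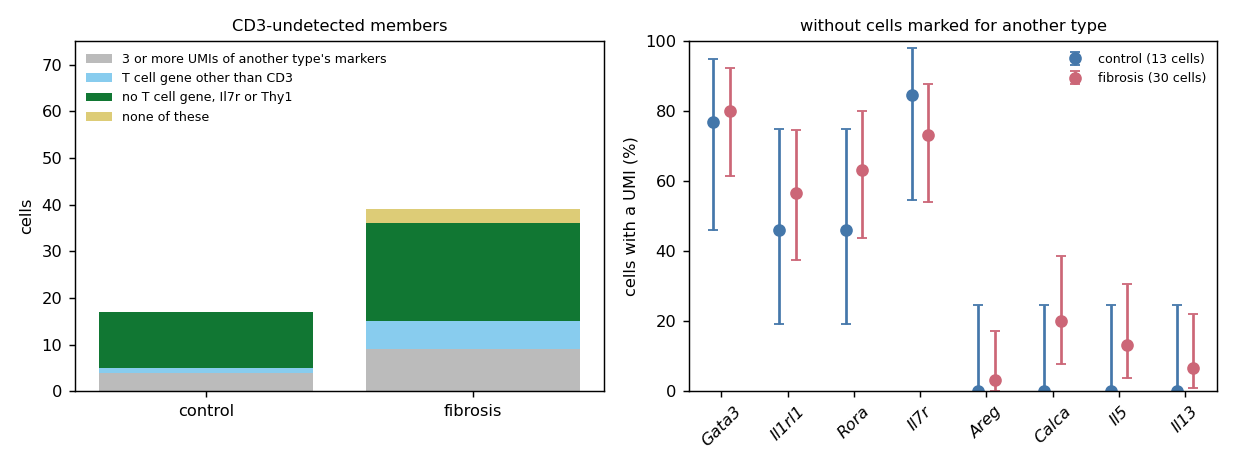
Left, number of CD3-undetected members (vertical axis) in each library by the transcripts they carried. Right, percent with a UMI of 8 genes after cells with markers of another type were left out (13 control and 30 fibrosis cells), with exact 95% intervals; the control cells have no UMI of the type 2 products.

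Gata3 together with Il1rl1, which group 2 innate lymphoid cells carry, was found in 4 of 17 control members (23.5%, 6.81 to 49.9) and 16 of 39 fibrosis members (41.0%, 25.6 to 57.9). Without marked cells the counts were 4 of 13 and 14 of 30, and thinned to 1000 UMIs the pair was found in 0 of 17 and 5 of 39. Of the unmarked cells, 4 control and 2 fibrosis cells carried Tbx21, Gzma or Gzmb, genes of the type 1 and cytotoxic list. At least 1 of Il5, Il13 and Areg was found in no control member, which allows up to 17.6% with the same limit of 3 cells, and in 11 fibrosis members (28.2%, 15.0 to 44.9), or 0 and 4 when thinned. Il5 was found in 4 fibrosis members, Il13 in 2 and Areg in 5. Without marked cells, Il5, Il13, Areg or Calca was found in 0 of 13 and 12 of 30 members, and 1 of all 39 fibrosis members carried more than 1 of these genes. Calca, which encodes the neuropeptide CGRP, had no UMI in control members and 36 UMIs in 6 unmarked fibrosis members, at least 7.30-fold higher. Il5, Il13 and Calca had no UMI in B-gated cells of either library. Areg was found there in 5 control and 5 fibrosis cells.

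Between the libraries, 1683 genes reached 20 UMIs in CD3-undetected members, and 19.7% were at least 2-fold higher and 11.0% lower in the fibrosis library, shares above those of the CD3-detected members. Genes of other cells led both ends. Mgp had no UMI in control members and 270 UMIs in fibrosis members, 178 of them in 1 cell, and Ccdc153, a gene of ciliated cells, had 98 in 4 cells. In the control library 193 Hbb-bs UMIs lay in 1 cell, and Plac8 had 165 UMIs in 6 cells. Of 9 epithelial markers 5 and 8 were detected, with up to 40 and 7830 UMIs per cell, and of 8 basophil and mast cell markers 8 and 2.

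Of 10 tested genes of the group 2 innate lymphoid list 2 were at least 2-fold higher and 1 lower over all CD3-undetected members, with a median log2 ratio of 0.14, shares near those of all genes. Without the marked cells, a choice made after seeing the data, 790 genes were left, with 8.23% higher and 9.75% lower. Of the list 5 of 10 genes were then higher and 1 lower. This count is a description. The rule gene Il1rl1 was among the 5 (12 UMIs in 6 cells, 41 in 17 cells, log2 ratio 1.01). So was Klrg1, also a rule gene (3 and 18 UMIs, 1.68). The others were Rora, Arg1 and Calca, and all 5 reached 20 UMIs only with the fibrosis UMIs added. Rora, a factor these cells need, had 8 UMIs in 6 cells and 32 in 19, a log2 ratio of 1.22 (0.13 to 2.61). Arg1, found in lung group 2 innate lymphoid cells, had 2 UMIs in 1 cell and 25 in 14, a log2 ratio of 2.63 (0.92 to 6.05). In B-gated cells Arg1 had 0 UMIs in the control and 19 in 6 of 412 fibrosis cells, and the part of free RNA was not tested. The lower gene was Lmo4, with 35 and 21 UMIs (-1.44).

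Beside that list, Ramp1 had 12 UMIs in 8 of the 13 control cells and 65 in 23 of the 30 fibrosis cells, a log2 ratio of 1.67 (0.82 to 2.74). The receptor part Ramp1 was thus higher in both kinds of member. Tnfrsf18 had 6 and 29 UMIs (1.46, 0.26 to 3.11), Lgals1 25 and 110 (1.40) and Cxcr6 10 and 39 (1.19). Pdcd1 was found in no control member and in 7 fibrosis members with 17 UMIs. Ccr2, a chemokine receptor of cells leaving the bone marrow, was lower, with 32 and 15 UMIs, a log2 ratio of -1.79 (-2.80 to -0.88). Ccr2 is also in the macrophage and monocyte list, but not among the markers that defined a marked cell. All 3 tested genes of that list were at least 2-fold lower in these unmarked cells, with a median log2 ratio of -4.52. The part of monocyte RNA in the Ccr2 difference was not tested. Gata3 (0.41, -0.30 to 1.19) and Il7r (0.59, -0.13 to 1.39) differed by less than counting error.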

How the data were processed

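The deposited values are raw UMI counts per gene and cell, made by the authors with Cell Ranger 1.3 and bcl2fastq on mm10, per the submitters' processing notes, from 10x 3′ V2 libraries, per the labels' protocols. The control and fibrosis matrices list 27998 genes. Cells over 10% mitochondrial UMIs (254 and 228) were left out, and doublets were kept and removed only in an alternative (scrublet in scanpy 1.11.5). The rule was applied to raw counts, and UMIs were summed per population and library. CPM carry exact Poisson intervals, ratios exact conditional intervals and shares Clopper-Pearson intervals, all at 95% (scipy 1.17.1). What a count of 0 allows is given as 3 counts of the total, not as the end of these intervals. Genes with at least 20 UMIs were compared at 2-fold. In comparisons within a library, genes with at most 3 UMIs in both populations were also left out, a condition added after the counts were seen. No fold change was tested, since each group is 1 mouse. Marked cells, with at least 3 UMIs of another type's defining markers, were also defined after seeing the data. The calculations were tested on simulated data.

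The members and the 24 gene lists (255 of 264 genes matched a symbol) were chosen with earlier results of these data known. Named genes are the 6 rule genes, the CD3 genes, listed genes, and, leaving out mitochondrial, ribosomal and Gm-numbered genes, those at each end. Within a library these were the 15 highest and 10 lowest by the smaller of the 2 ratios. Between libraries they were the 10 highest and 10 lowest after the ratio in other T cells was subtracted, with an interval without 1. Genes named for the share of their UMIs in 1 cell were chosen after their values were seen. Alternatives changed the number of rule genes, Klrg1's place in the rule, the depth, doublets, the mitochondrial limit, the UMI minimum, the scaling, shared barcodes and CD3 detection. Leaving out cells above 10000 UMIs, and counting Cd5 or Cd6 beside the CD3 genes, were chosen after seeing the data.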

Additional observations from a re-analysis of the deposited data

Results flagged for a closer look

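Some genes differed between populations in opposite directions in the control and fibrosis libraries. These differences between the libraries were not tested, and each library is 1 mouse. In CD3-detected members against other T cells, the log2 ratio was 1.44 for control and -0.80 for fibrosis cells for Ccl5, 0.54 and -0.45 for Nkg7, and -0.94 and 0.44 for Plac8. In CD3-undetected against CD3-detected members, it was 0.86 and -0.75 for Ccr2, 1.09 and -1.14 for Fos, and 1.99 and -2.29 for H2-Ab1. It was 2.50 and -3.25 for Plac8, 3.45 and -2.69 for Retnlg, 2.24 and -2.53 for S100a8, 1.66 and -3.58 for S100a9, and 3.61 and -1.90 for Tnfrsf9. Of the 165 control Plac8 UMIs in CD3-undetected members 53 lay in 1 cell, and of their 296 control S100a8 UMIs 152 lay in 1 cell. Tnfrsf9 rests on 5 control UMIs against 1. In Foxp3-detected against other CD3-detected members, Plac8 had log2 ratios of -2.94 and 0.69.

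Among cells over the mitochondrial limit, which entered no comparison, 1 of 254 control cells and 4 of 228 fibrosis cells (1.75%) met the other conditions of the rule. The control share of such cells was 0.394%.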

How the results depend on the processing

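No paired analysis was possible because each group is 1 mouse. Of 163 recomputed values of the comparisons 125 moved by no more than the main value's interval or 1.5 times its count, and of 418 of the 53 named genes 403 did. Of the named genes whose main interval did not include 0, only Maf changed direction, to -0.17 when cells were thinned. Changes of sign in the other named genes were not counted. The share of CD3-detected members was 2.28 to 4.31 times as high in the fibrosis library over 11 alternatives, and that of CD3-undetected members 2.46 to 4.43 times over 10. Few cells limit every value, most of all the 10 control Foxp3-detected and 13 unmarked control CD3-undetected members. CD3 detection with T cell receptor constant genes was not run, since these symbols matched no gene, and is not analysed here.

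With at least 3 of the 6 genes, the fold of the CD3-detected share was 4.31, Foxp3 was detected in 13.6% of control and 31.7% of fibrosis members, and CD8 genes in 13.6% and 7.32%. Then 64 genes were higher and 57 lower between the libraries in CD3-undetected members, 771 higher in members against other T cells, 59 higher in CD3-undetected against CD3-detected members, and 26 higher and 29 lower with Foxp3. Thinned to 1000 UMIs before the rule, the fold was 4.04, Foxp3 was detected in 5.0% of control and 14.3% of fibrosis members, and CD8 genes in 0 and 2.86%. Between the libraries 65 genes were higher and 42 lower in CD3-detected and 28 and 12 in CD3-undetected members. Against other T cells 41 were lower, in CD3-undetected against CD3-detected members 15 were higher and 8 lower, and with Foxp3 12 and 1. Of the lists, 2 regulatory T cell genes were then higher and 0 cytotoxic genes lower, with fewer genes reaching 20 UMIs. At a minimum of 5 UMIs, 1207 genes were higher and 877 lower in CD3-detected and 1682 and 973 in CD3-undetected members, 162 were lower with Foxp3, and 9 cytotoxic genes were lower. Scaled by the median ratio, 229 genes were higher and 529 lower against other T cells, and 52 higher with Foxp3. Without marked cells, chosen after seeing the data, 65 and 77 genes were higher and lower between the libraries in CD3-undetected members, 69 lower against other T cells, and 102 higher in CD3-undetected against CD3-detected members.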
